A study of Mus musculus with 12 samples.

Results

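The troponin genes were described in C2C12 cells, a mouse C3H myoblast line that fuses into myotubes when serum is lowered. All probes of the array table whose gene symbol was Tnnc1, Tnnc2, Tnni1, Tnni2, Tnni3, Tnnt1, Tnnt2 or Tnnt3 were taken, which gave 15 probes of 8 genes out of 56745 probes and 27306 gene symbols. Cells received a control siRNA (siControl) or an siRNA against Bach1 (siBach1), a repressor that binds DNA with small Maf proteins. RNA was taken at day 0, when the cells had reached confluence 24 hours after transfection, and at day 2, after 2 days in DMEM with 2% horse serum. Each of the 4 groups had 3 arrays, 12 in all, with 1 siRNA sequence used for the silencing and a single cell line throughout. The labels number the replicates without naming separate cultures, so p-values measure only the spread between these samples, which may be technical. Whole cultures were measured, so fewer differentiating cells and less troponin RNA per cell cannot be told apart.

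Troponin is the calcium switch of striated muscle. It sits on the thin filament with tropomyosin and actin and is built of troponin C, which binds calcium, troponin I, which inhibits the interaction of actin and myosin, and troponin T, which ties the complex to tropomyosin. Each subunit has isoforms named for the fibres in which they prevail. Tnnc1 encodes the slow and cardiac troponin C and Tnnc2 the fast one. Tnni1, Tnni2 and Tnni3 encode the slow, fast and cardiac troponin I, and Tnnt1, Tnnt3 and Tnnt2 the slow, fast and cardiac troponin T. Embryonic and cultured muscle cells are known to express cardiac isoforms beside the skeletal ones.

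The stretches upstream of 4 of these genes are shown. Tnnc1 and Tnnc2 are the slow and fast partners of 1 subunit, and Tnnt1 and Tnni3, a slow and a cardiac gene, are immediate neighbours in the genome. Whether these stretches play a part in the contrast of isoforms was not tested. Each sequence holds the 250 bases before the start of transcription in RefSeq's annotation of GRCm38.p6, written 5′ to 3′ on the gene's own strand. Capitals mark every E-box (CANNTG), the motif that MyoD and myogenin are known to bind. They lie at chr14:31208062-31208311 (+ strand) for Tnnc1, chr2:164779735-164779984 (- strand) for Tnnc2, chr7:4515976-4516225 (- strand) for Tnnt1 and chr7:4522529-4522778 (- strand) for Tnni3.
Tnnc1: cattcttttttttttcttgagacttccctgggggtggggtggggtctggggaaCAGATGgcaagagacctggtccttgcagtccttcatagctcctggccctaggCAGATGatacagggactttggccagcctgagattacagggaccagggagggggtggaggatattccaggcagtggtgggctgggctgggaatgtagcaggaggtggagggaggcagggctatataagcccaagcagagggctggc
Tnnc2: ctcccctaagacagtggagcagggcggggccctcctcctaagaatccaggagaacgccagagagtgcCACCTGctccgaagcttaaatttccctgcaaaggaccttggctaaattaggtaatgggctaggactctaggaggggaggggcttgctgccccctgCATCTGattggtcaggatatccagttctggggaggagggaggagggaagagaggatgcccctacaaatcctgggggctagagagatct
Tnnt1: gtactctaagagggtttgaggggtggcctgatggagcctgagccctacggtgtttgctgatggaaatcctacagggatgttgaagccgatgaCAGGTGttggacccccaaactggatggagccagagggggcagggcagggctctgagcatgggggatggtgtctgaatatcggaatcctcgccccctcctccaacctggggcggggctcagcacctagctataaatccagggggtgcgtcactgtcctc
Tnni3: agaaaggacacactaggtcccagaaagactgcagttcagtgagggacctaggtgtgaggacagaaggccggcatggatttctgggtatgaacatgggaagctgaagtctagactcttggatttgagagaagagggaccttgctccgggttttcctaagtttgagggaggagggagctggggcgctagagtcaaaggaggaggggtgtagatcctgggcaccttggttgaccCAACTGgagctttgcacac

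The table of upstream sequences held 6 of the 8 genes, without Tnni2 and Tnnt3. Both strands were searched for E-boxes, for the M-CAT core CATTCC, which TEAD proteins are known to bind, and for TGANTCA, the core of the elements bound by Bach1 and small Maf proteins. An E-box was found in each window of the 6 genes, with 2 copies for Tnnc1, 2 for Tnnc2, 1 for Tnnt1 and 1 for Tnni3. Tnni1 had 4 and 2 in its 2 annotated windows, which overlap, so that the 2 are among the 4. Tnnt2 had 4 and 1. This motif is common, since 66.2% of all 32851 windows of this length held at least 1. The M-CAT core occurred before Tnnc1 and in 1 window of Tnnt2, against 12.6% of all windows. TGANTCA was absent from the windows of all 6 genes, and 6.75% of all windows held it. MEF2 and CArG motifs were not found in these windows either, and 2.92% and 1.47% of all windows held them.

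Signals are given as log2 values relative to the 75th percentile of the same array, and levels of different probes were not set against each other because probes differ in brightness. The 75th percentile lay between 325.5 and 534.4 intensity units, and between 47.6% and 58.9% of probes per array were well above background. Bach1 itself fell by 1.77 ± 0.11 (SE, n = 3 per group) on the log2 scale with siBach1 at day 0 and fell by 1.97 ± 0.11 at day 2. Replicates 1 and 2 were on 1 slide and replicate 3 on the other, and each group kept its own column of the slide, so that column and group cannot be told apart. Of the 8 myogenic markers found on the array under their listed symbols, 7 were well above background in all arrays. These were Myod1, Des, Cdh15, Itga7, Cd82, Myog and Ckm. Myf5 was well above background in 2 of 3 arrays of each group. Of 10 cardiomyocyte markers, Nppb, Gata4 and Nkx2-5 were well above background in all 12 arrays, and Myl7, Hand2 and Tbx20 in none.

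Of the 15 troponin probes, 11 were well above background in all 12 arrays. The 4 exceptions were both Tnni3 probes and the 2 dimmer Tnnt2 probes, which the array design assigns to 2 other transcript accessions than the main Tnnt2 probe. All 15 entered the test because they were well above background in the 3 arrays of at least 1 group, which left 29664 probes of the array in the comparison. Since probes of 1 gene read the same RNA, the 15 are not independent. For each gene the brightest probe served as its main probe.

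**Figure D1:**
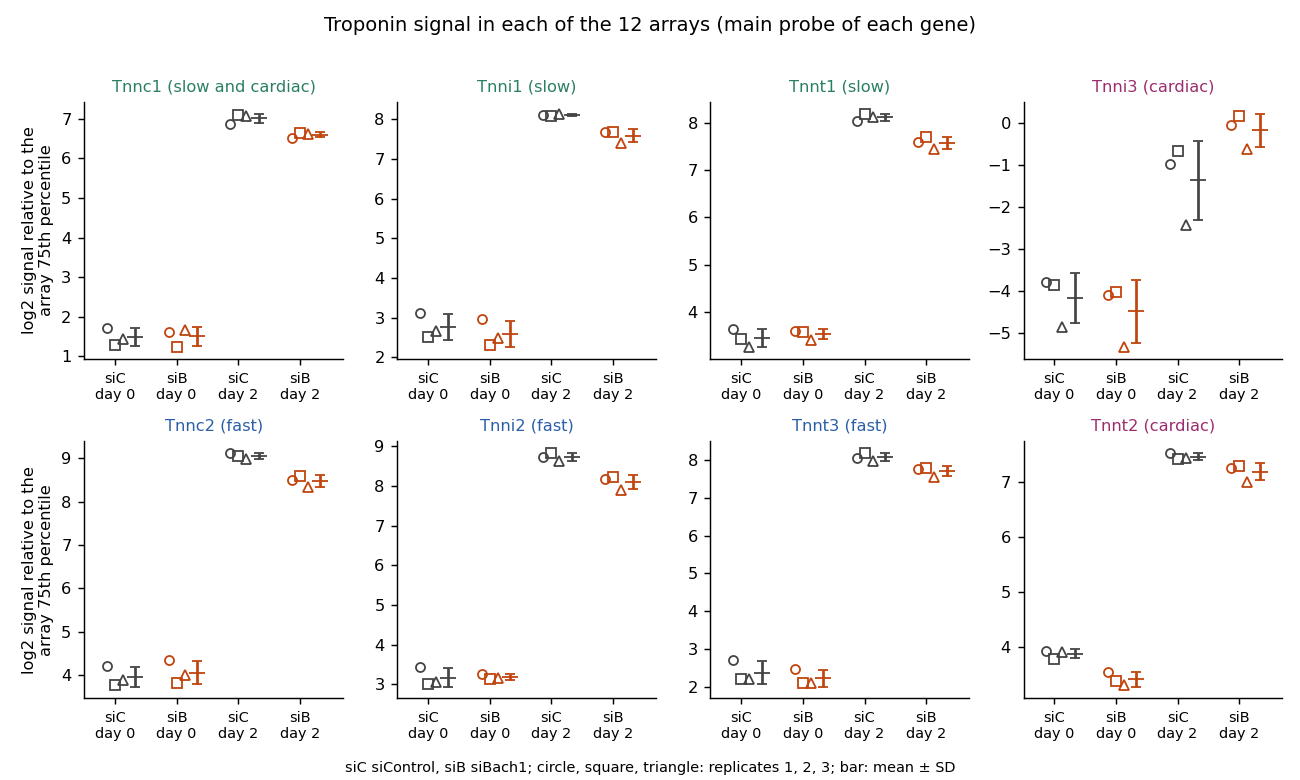
Log2 signal, scaled to the 75th percentile of each array, for the main probe of each troponin gene, with a point for each of the 12 arrays and bars for the mean ± SD of the 3 arrays in a group. At day 2 the siBach1 arrays lie below the siControl arrays in every panel except that of Tnni3, where they lie above.

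All troponin genes rose strongly from day 0 to day 2, with either siRNA. Over the 11 probes that were well above background in all 12 arrays, the fold change ranged from 12 to 56.6 in siControl cells and from 13.6 to 47.8 in siBach1 cells. All 11 passed the test (limma, Benjamini-Hochberg adjusted p under 0.05) in each case. Both Tnni3 probes and the dimmer Tnnt2 probes passed as well. They entered the test only through groups of day 2, however, so that the filter favoured their rise. All 11 also rose at least 2-fold. Among all tested probes, 10.5% in siControl and 10.9% in siBach1 cells passed with a rise of at least 2-fold. Without the fold limit, 24.6% and 23.8% passed in the higher direction. The median log2 change of the 11 probes was 5.42 in siControl cells, where the median of all probes was 0.00. In siBach1 cells it was 5.00, where that of all probes was -0.07.

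Among the calcium-binding subunits, Tnnc1 rose by 5.53 ± 0.14 (SE) on the log2 scale with siControl and by 5.09 ± 0.14 with siBach1. Tnnc2 rose by 5.09 ± 0.15 and 4.42 ± 0.15, or 34.0-fold and 21.3-fold. For the slow and fast inhibitory subunits, Tnni1 rose by 5.35 ± 0.19 and 5.00 ± 0.19 and Tnni2 by 5.56 ± 0.13 and 4.91 ± 0.13. Each of these 4 genes therefore rose more than 20-fold with either siRNA, and each had the smaller estimate in siBach1 cells. The fast troponin T, Tnnt3, had the largest rise among the main probes, 5.71 ± 0.16 and 5.49 ± 0.16. The slow Tnnt1 rose by 4.68 ± 0.11 and 4.05 ± 0.11.

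The cardiac isoforms started their rise from different levels of detection. Tnnt2 was well above background in all arrays already at day 0 and rose by 3.58 ± 0.10 in siControl and 3.77 ± 0.10 in siBach1 cells, the smallest rise among the main probes in siBach1 cells. The smallest rise in siControl cells was that of Tnni3, 2.80 ± 0.51, against 4.32 ± 0.51 in siBach1 cells. Its second probe, A_51_P386983, was not well above background in any siBach1 array at day 0, so its signal at day 2 was at least 15.5-fold higher there, a bound set by the dimmest probes that were well above background. Of the dim Tnnt2 probes, A_55_P2715376 was not well above background in any array at day 0, so that its signal at day 2 was at least 2.09-fold higher in siControl cells and at least 1.25-fold higher in siBach1 cells, so that a 2-fold rise is not shown there. The other, A_55_P2715371, was well above background in 1 of 3 arrays of either siRNA at day 0 and in all arrays of day 2.

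**Figure D2:**
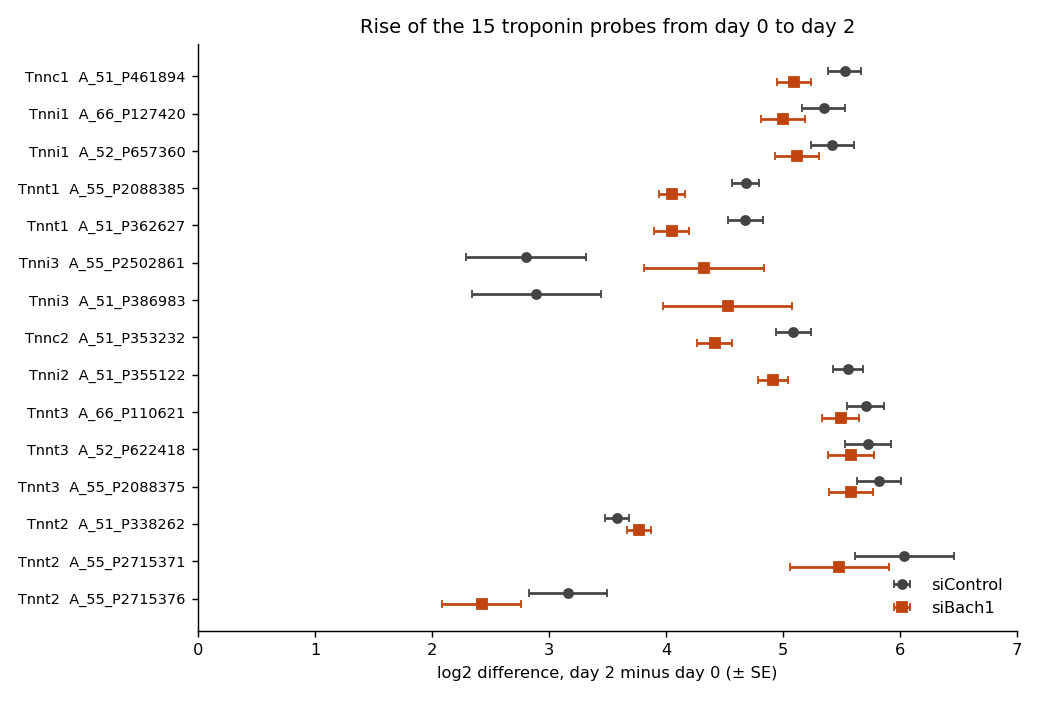
Log2 difference between day 2 and day 0 for each of the 15 troponin probes in siControl cells (circles) and siBach1 cells (squares), with bars of 1 SE. All values are above 0, and the square lies left of the circle for every probe except the 2 Tnni3 probes and the main Tnnt2 probe. The values of the 2 Tnni3 and the 2 dimmer Tnnt2 probes rest in part on day 0 signals that were not well above background.

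Before differentiation was induced, 1 of the 15 probes passed the test for Bach1 silencing, the main probe of cardiac troponin T, Tnnt2, which was lower in siBach1 cells. It gave 3.93, 3.78 and 3.91 in the 3 siControl arrays of day 0 and 3.55, 3.37 and 3.30 in the siBach1 arrays. These groups did not overlap, which held in the same direction for 15.4% of all probes. The signal fell by 0.46 ± 0.10 on the log2 scale, or 27.4% (adjusted p = 0.0118 in limma). At this day 8.32% of all tested probes passed the test in the lower direction, so that 1 of 15 is near the background. The 2 dimmer Tnnt2 probes were well above background in at most 1 array of each group at day 0 and had values of 0.51 ± 0.42 and 0.26 ± 0.34 that did not pass.

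No probe of the other 7 troponin genes passed at day 0, and their groups overlapped. Their main probes differed by 0.10 at most in the higher direction (Tnnc2, 95% interval -0.24 to 0.43) and by -0.32 in the lower (Tnni3, -1.46 to 0.81). For the genes with the narrowest intervals, Tnnt1 and Tnni2, these ran from -0.17 to 0.34 and from -0.27 to 0.30. The median over the 15 probes was -0.10, and over all tested probes it was 0.09.

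At day 2 all 10 probes of the slow and fast troponin genes had negative differences, and 4 of the 15 probes passed the test, each lower in siBach1 cells: Tnnc2, Tnni2 and both probes of Tnnt1. Over the whole array, 6.26% of tested probes passed in this direction. The signals of 10 of the 15 probes were lower without overlap between the groups, against 17.1% of all probes, and those of 2 probes, both of Tnni3, were higher without overlap, against 15.7%. The median difference of the 15 probes was -0.42 on the log2 scale, and that of all tested probes was -0.01. No troponin probe reached a 2-fold change and passed the test, which 0.651% of all probes did in the lower direction.

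Fast troponin I had the largest fall among these. Tnni2 gave 8.74, 8.83 and 8.62 in the siControl arrays of day 2 and 8.18, 8.22 and 7.91 in the siBach1 arrays, whereas at day 0 its arrays overlapped at 3.44, 3.02 and 3.07 and at 3.27, 3.12 and 3.16. All 3 siBach1 values at day 2 were below the lowest siControl value. Its signal fell by 0.63 ± 0.13 on the log2 scale, or 35.4% (adjusted p = 0.0121). Within the slides the difference was -0.59 on the first, with 2 arrays per group, and -0.71 on the second, with 1.

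Fast troponin C fell too. Tnnc2 was at 9.12, 9.05 and 8.97 in siControl and at 8.49, 8.59 and 8.34 in siBach1 cells at day 2. The groups did not overlap, and the signal fell by 0.58 ± 0.15, or 32.9% (adjusted p = 0.0344). At day 0 the same probe gave 4.21, 3.78 and 3.89 in siControl and 4.35, 3.81 and 4.01 in siBach1 cells, which overlap.

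Slow troponin T also fell, at both of its probes. The main Tnnt1 probe gave 8.05, 8.20 and 8.13 in siControl and 7.60, 7.70 and 7.44 in siBach1 cells at day 2, without overlap. The fall was 0.54 ± 0.11 on the log2 scale, or 31.4% (adjusted p = 0.0141), and the second probe fell by 0.54 ± 0.15 (adjusted p = 0.041). At day 0 the main probe had read 3.65, 3.43 and 3.26 in siControl and 3.60, 3.59 and 3.41 in siBach1 cells.

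The remaining slow and fast genes had negative values that did not pass. Slow troponin I, Tnni1, was between 8.08 and 8.15 in siControl and between 7.40 and 7.68 in siBach1 cells at day 2, apart in all 3 replicates, with a difference of -0.52 ± 0.19 (95% interval -0.94 to -0.11, adjusted p = 0.0999) and -0.51 ± 0.19 at its second probe. Slow and cardiac troponin C, Tnnc1, was between 6.87 and 7.10 in siControl and between 6.52 and 6.65 in siBach1 cells, a difference of -0.42 ± 0.14 (adjusted p = 0.0853). These groups, too, did not overlap. Fast troponin T, Tnnt3, had the smallest differences among the skeletal genes, -0.37 ± 0.16, -0.34 ± 0.19 and -0.33 ± 0.20 at its 3 probes (lowest adjusted p = 0.164), and at A_55_P2088375 the groups overlapped.

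The cardiac isoforms had other values, and none of their 5 probes passed in this fit. For cardiac troponin I, Tnni3, the main probe gave -0.98, -0.67 and -2.44 in siControl and -0.05, 0.16 and -0.60 in siBach1 cells at day 2. All siBach1 values were above the highest siControl value, and replicate 3 was the lowest in all 4 groups. The difference of 1.20 ± 0.51 on the log2 scale, or 2.29-fold, did not pass (95% interval 0.06 to 2.33, adjusted p = 0.161), and the second probe gave 1.33 ± 0.55 (adjusted p = 0.151). Without the third siControl array of day 2 these values were 0.66 and 0.77, and over all arrays left out in turn they reached up to 1.54 and 1.75, with no call. At day 0 the main probe was at -3.78, -3.85 and -4.86 in siControl and at -4.09, -4.04 and -5.34 in siBach1 cells, and it was well above background in 2 of 3 arrays of each. Cardiac troponin T, Tnnt2, was at 7.52, 7.40 and 7.43 in siControl and at 7.25, 7.29 and 7.0 in siBach1 cells at day 2. Its difference of -0.27 ± 0.10 did not pass (adjusted p = 0.115), and those of the dimmer probes were -0.05 ± 0.42 and -0.48 ± 0.34 with overlapping groups.

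Arrays with the same replicate number deviated together, and a fit with the replicate number as a block changed several of these calls. With the block, 9 of 15 troponin probes passed at day 2, 7 lower and 2 higher, where 21.3% of all probes passed. The additional ones were both probes of Tnni1 (adjusted p = 0.0491 and 0.0388), A_55_P2088375 of Tnnt3 (adjusted p = 0.0479) and both probes of Tnni3 (adjusted p = 0.0133 and 0.004). Tnni3 was higher on both slides, by 0.88 on the first and 1.83 on the second at its main probe. With the slide as a block, where 21.8% of all probes passed, both Tnni3 probes passed as well (adjusted p = 0.00237 and 0.00993). With normexp background correction, where 11.7% of all probes passed, the second one did (0.92, adjusted p = 0.0327). In the other direction, no troponin probe passed at day 2 after quantile normalisation, where 12.5% of all probes did. The differences were then -0.43 for Tnni2, -0.34 for Tnnc2 and -0.35 and -0.39 for the Tnnt1 probes, with adjusted p from 0.0613 for Tnni2 to 0.166 for Tnnc2. None passed without the filter on dim probes, where the adjusted p of Tnni2 was 0.0571 and 2.31% of all probes passed. Leaving out any 1 of the 6 arrays of day 2 left 2 of the 4 calls, those of Tnni2 and of the main Tnnt1 probe.

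**Figure D3:**
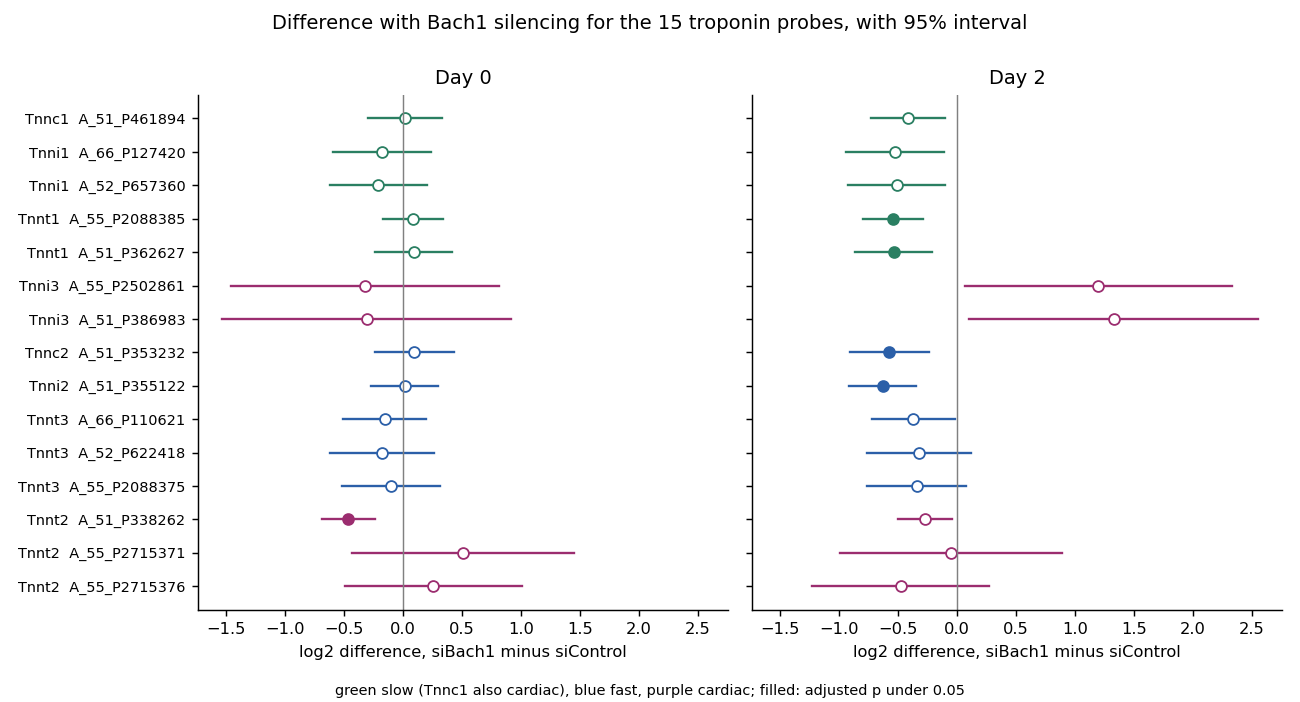
Log2 difference between siBach1 and siControl cells at day 0 and day 2 for the 15 troponin probes, with 95% intervals from the fit of all 12 arrays, coloured by isoform and filled where the adjusted p was under 0.05. At day 2 the 10 slow and fast probes lie between -0.63 and -0.33, and the 2 Tnni3 probes lie at 1.20 and 1.33.

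Whether the silencing difference itself changed between the days was tested as an interaction. None of the 15 probes passed (limma, adjusted p under 0.05), against 4.59% of all tested probes. An unadjusted p under 0.05 was found for 4 of the 15, against the 21.8% of all tested probes that had one. These were Tnnc2, Tnni2 and both probes of Tnnt1. The main Tnnt1 probe came nearest, with a difference between the days of -0.63 ± 0.16 (adjusted p = 0.0562), followed by Tnni2 with -0.64 ± 0.18 (adjusted p = 0.0729) and Tnnc2 with -0.67 ± 0.21 (adjusted p = 0.102). The Tnni3 probes had the largest values, 1.52 ± 0.72 at the main probe, with an interval of -0.08 to 3.13, and 1.64 ± 0.78 at the second. Without the third siControl array of day 2 they were 0.98 and 1.08. The main Tnnt2 probe, lower at both days, had 0.19 ± 0.14 (interval -0.13 to 0.51).

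With the replicate number as a block, 6 probes passed this test, where 13% of all probes did: Tnnc2, Tnni2 and both Tnnt1 probes with a lower and both Tnni3 probes with a higher value at day 2 than at day 0. Their adjusted p ranged from 0.013 for the main Tnni3 probe to 0.0396 for Tnnc2. Leaving out the first siControl array of day 0 gave 2 calls without the block, Tnni2 (adjusted p = 0.0446) and the main Tnnt1 probe (adjusted p = 0.0497).

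The balance of fast and slow isoforms was followed by subtracting, in each array, the mean log2 signal of Tnnc1, Tnni1 and Tnnt1 from that of Tnnc2, Tnni2 and Tnnt3, relative to the siControl mean of day 0. Only changes in this value can be read, and no test was applied to it. It was 0.02 ± 0.06 (SD, n = 3) in siBach1 cells at day 0, 0.27 ± 0.11 in siControl cells at day 2 and 0.24 ± 0.06 in siBach1 cells at day 2. The shift with silencing was 0.02 at day 0 and -0.03 at day 2, both smaller than the pooled SD of 0.07.

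The subunits differed in this balance over differentiation. For troponin T it shifted toward the fast isoform by 1.07 in siControl and 1.5 in siBach1 cells from day 0 to day 2, for troponin C toward the slow isoform by -0.44 and -0.68, and for troponin I by 0.17 and -0.15, with pooled SDs of 0.15, 0.15 and 0.14. In troponin T the 3 siControl arrays of day 2 were at 1.10, 1.16 and 0.96 and the siBach1 arrays at 1.35, 1.22 and 1.23. The shift with silencing at day 2 was 0.19 for troponin T, -0.16 for troponin C and -0.11 for troponin I. Between arrays of the same replicate number the shift was 0.25, 0.06 and 0.27 for troponin T, -0.29, -0.01 and -0.18 for troponin C and -0.12, -0.21 and -0.01 for troponin I. Each subunit had 1 sign in the 3 replicates, but values were as small as -0.01, and the mean shift of troponin I lay within its pooled SD. No test was applied to these shifts. At day 0 it was -0.13, -0.30 and -0.27 for troponin T, 0.06, 0.33 and 0.24 for troponin I, and 0.24, 0.10 and -0.11 for troponin C. The sign in troponin T and troponin I was thus the opposite at day 0.

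**Figure D4:**
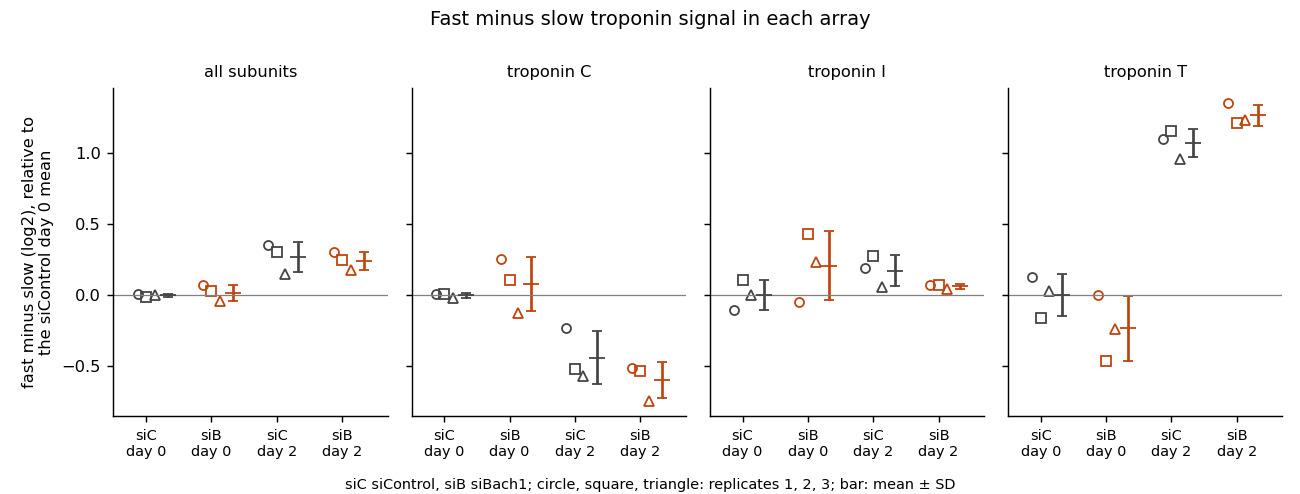
Fast minus slow troponin signal (log2) in each of the 12 arrays, relative to the siControl mean of day 0, over all subunits and for troponin C, I and T apart, with bars for the mean ± SD of 3 arrays. Values of troponin T rise above 0.9 at day 2 with either siRNA, and those of troponin C lie below 0 at day 2.

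In the reference annotation Tnnt1 and Tnni3 lie next to each other with no gene between them, and at day 2 Tnnt1 had a value of -0.54 and Tnni3 of 1.20. Tnni2 lies between Syt8 and Lsp1, an actin-binding protein of leukocytes and other cells. At day 2 Syt8 fell by 2.03 ± 0.45 (adjusted p = 0.0176) and Lsp1 fell by 0.81 ± 0.12 (adjusted p = 0.00229). Next to Tnnt3, Mrpl23, which encodes a mitochondrial ribosomal protein, fell by 0.37 ± 0.09 (adjusted p = 0.0244), and Prr33 had a value of 0.06 ± 0.37. The genes that flank Tnnc1, Tnnc2, Tnni1 and Tnnt2 did not pass at day 2. At day 0, Nisch beside Tnnc1 rose by 0.33 ± 0.09 (adjusted p = 0.0274) and Ppp1r12c beside Tnnt1 fell by 0.29 ± 0.09 (adjusted p = 0.0441). The nearest tested gene on each side of every troponin gene was read. Among all genes, 10.1% passed higher and 9.85% lower at day 0, and 6.38% and 7.4% at day 2. Whether the position in the genome plays a part was not tested.

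Other genes of the contractile apparatus were read from lists, with 1 probe per gene, against 7.4% of all genes lower and 6.38% higher at day 2 and a median of -0.03. Of 19 partners of troponin at the thin filament and Z-disc, 2 passed at day 2, both lower. Actc1, the cardiac actin of early muscle, fell by 0.75 ± 0.10 (adjusted p = 0.00158), and Actn2, an actinin of the Z-disc, fell by 1.93 ± 0.26 (adjusted p = 0.00157). The median of this list was -0.14. At day 0, 3 of the 19 were higher: Lmod3, Klhl40 and Klhl41, which act in thin filament assembly and stability, with values of 0.93 ± 0.21, 0.69 ± 0.16 and 0.88 ± 0.27 (adjusted p = 0.0132, 0.0146 and 0.0475). Across all genes 10.1% passed in that direction at day 0 and 9.85% in the lower one.

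Fibre type genes outside the troponins moved unevenly at day 2. Of 11 tested fast fibre genes 3 fell and none rose, with a median of -0.34. Casq1, the calsequestrin of fast fibres, fell by 2.44 ± 0.27 (adjusted p = 0.000625), Myh1, a fast myosin heavy chain, fell by 1.19 ± 0.30 (adjusted p = 0.0296) and Pvalb, which buffers calcium, fell by 0.94 ± 0.14 (adjusted p = 0.00279). Of 11 tested slow fibre genes 1 fell and 2 rose, with a median of -0.20. Myl2, the slow and ventricular myosin light chain, fell by 2.03 ± 0.38 (adjusted p = 0.00838), the calcium pump Atp2a2 rose by 0.47 ± 0.11 (adjusted p = 0.025), and its inhibitor Sln rose by 2.75 ± 0.60 (adjusted p = 0.0162) from a level that was well above background in 1 of 3 siControl arrays. Of 9 tested cardiac and embryonic muscle genes 3 fell and none rose, with a median of -0.37. Beside Actc1 these were the perinatal myosin Myh8, which fell by 1.01 ± 0.27 (adjusted p = 0.0402), and the cardiac myosin Myh6, which fell by 0.86 ± 0.24 (adjusted p = 0.046). The Myh6 signal was dim, well above background in 2 of 3 siBach1 arrays of day 2 and in no array of day 0.

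Regulators of muscle genes were read the same way, and 3 of 21 tested fell at day 2 and 2 rose, with a median of 0.02. Myogenin, Myog, fell by 0.98 ± 0.21 (adjusted p = 0.0165), Myod1 fell by 0.48 ± 0.13 (adjusted p = 0.0365) and Tead4, a factor of M-CAT elements, fell by 0.68 ± 0.13 (adjusted p = 0.00855). Ppargc1a, a coactivator of slow fibre and mitochondrial genes, rose by 1.13 ± 0.17 (adjusted p under 0.05), and Tbx15, a factor of fast fibres, by 0.33 ± 0.10 (adjusted p = 0.048). At day 0 Tead4 fell by 0.95 ± 0.13 (adjusted p = 0.000793), Mef2c fell by 0.69 ± 0.13 (adjusted p = 0.00569) and the deacetylase Hdac4 fell by 0.44 ± 0.09 (adjusted p = 0.00778). In the same comparison Vgll2, Vgll3, Six4 and Eya4 rose, Vgll2 by 0.94 ± 0.10 (adjusted p = 0.000224), which makes 3 lower and 4 higher of 21. The part of these regulators in the troponin differences, that of Tnnt2 at day 0 included, was not tested.

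Markers of myogenic cells were read at both days. Of the 7 markers tested under their listed symbols 4 fell at day 2 and none rose, namely Myog, Myod1, Itga7 and Cd82. The fusion protein myomaker, listed as Mymk, is on the array as Tmem8c and was left out of these counts. Its probe was lower too at day 2, by 0.59 (adjusted p = 0.0268 in limma). Summed over the list without it, the signal was between 969 and 1017 in siControl and between 739 and 750.3 in siBach1 cells. Units are the array's 75th percentile. Such sums are weighted toward the brightest probes, here Itga7 and Cd82, with mean log2 signals of 8.69 and 7.83 in siControl cells at day 2. Des, Cdh15 and Ckm had values of -0.15, -0.26 and -0.24 at day 2 that did not pass. At day 0 the sum was between 340 and 365.3 in siControl and between 396.3 and 443 in siBach1 cells. There Cdh15 rose by 0.45 ± 0.09 (adjusted p = 0.00514 in limma) and Itga7 rose by 0.32 ± 0.08 (adjusted p = 0.0255). Cardiomyocyte markers summed to between 2.66 and 3.28 in siControl and between 3.05 and 3.43 in siBach1 cells at day 2, where Gata4 rose by 0.42 ± 0.11 (adjusted p = 0.032), Myh6 fell as given above, and Nppb, Nkx2-5 and Nppa, with values of -0.08, -0.17 and 0.56, did not pass. At day 0 they summed to between 3.17 and 3.53 in siControl and between 2.53 and 2.73 in siBach1 cells, where Nppb fell by 1.27 ± 0.18 (adjusted p = 0.00115) and Nkx2-5 fell by 0.33 ± 0.10 (adjusted p = 0.0469). The sums of other lists overlapped between the siRNAs at day 2. For smooth muscle, 5 of 6 markers were well above background in all arrays, with sums of 449.5 to 592.2 in siControl and 448.5 to 590.2 in siBach1 cells. Leukocyte markers (4 of 5 well above background, without Adgre1) summed to between 23.9 and 31.5 and between 19.8 and 30.7, and adipocyte markers (3 of 6, without Adipoq) to between 2.38 and 3.60 and between 3.46 and 3.76. Of 5 endothelial markers Cdh5, Kdr, Tek and Emcn were not well above background in any array, whereas Pecam1 was in 2 of 3 siBach1 arrays of day 0 and in all arrays of the other groups. The part of these markers in the troponin differences was not tested.

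Genes with the pattern most like each troponin were sought over the 12 arrays, by the root mean square difference of log2 values after each probe was centred on its own mean. Some troponins were nearest to each other. The probe nearest to Tnnc1 was 1 of Tnni1, at 0.148, followed by Tnni2 at 0.154, and the probe nearest to Tnni1 was Tnni2 at 0.151. Nearest to Tnnt1 was Tmem8c, an older symbol of the fusion protein myomaker, at 0.105, with a difference of -0.59 at day 2. For Tnnc2 the nearest were Myom3, an M-band protein, at 0.154 and the fast light chain Mylpf at 0.154, for Tnnt3 the M-band protein Myom1 at 0.157, and for Tnnt2 the intracellular cation channel Tmem38a at 0.144. Tmem38a had a difference of -0.43 at day 0.

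No probe was as close to Tnni3. Its main probe varied more within groups than the other main probes, with SDs from 0.40 to 0.94. Spread that another probe does not share adds to this distance. The nearest, of the sodium pump subunit Atp1b2, was at 0.34, followed by Slc2a4, the insulin-responsive glucose transporter, at 0.424 and Igtp, an interferon-induced GTPase, at 0.445. All these genes were chosen for their likeness over the same arrays, so their differences are a description. In siBach1 cells at day 2 the difference was 1.51 for Slc2a4, 1.46 for Atp1b2 and 0.80 for Igtp.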

How the data were processed

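RNA was hybridised to 12 one-colour Agilent arrays. The authors deposited, per the file headers, Feature Extraction intensities after background subtraction. Their series table holds raw processed signals and normalized log2 values, and the normalized values were used as an alternative. The submitters' notes name Agilent Feature Extraction version 9.1, whereas the file headers name 10.7.3.1. Control and outlier spots were removed, repeated spots averaged, and the 75th percentile of each array subtracted from log2 intensity. Probes well above background in all 3 arrays of at least 1 group were tested in limma 3.58.1 (R 4.3.3). There was 1 fit of the 4 groups, with Benjamini-Hochberg adjustment and a threshold of 0.05. The fit was tried on simulated data with noise independent between arrays, which leaves out the shared deviations of same-numbered arrays. Groups came from the labels. The 4 groups share replicate numbers, and all 18 pairs of same-numbered arrays had residual correlations of 0.142 to 0.595, above the limit of 0.1, so a replicate block was run. Same-numbered arrays also share a slide and row, which cannot be told apart. The alternatives were quantile normalisation, normexp background correction (median signals, offset 50), the authors' normalized values, other filters on dim probes, replicate or slide blocks, a robust trend, the arrays of 1 comparison alone, the methods' t-test and leaving out each array. Values within each slide were added after seeing the data. Named genes were all 8 troponins with every probe, their flanking genes, the 3 most alike probes of each main probe, and list genes that passed. Markers of smooth muscle, adipocytes, endothelium and leukocytes were also listed. The members and lists were chosen with earlier results of these data known. Promoters are RefSeq's, by symbol (6 of 8 genes), and of 15 probe accessions 13 were in the reference table with the same symbol. The number of arrays limits the precision.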

Additional observations from a re-analysis of the deposited data

How the results depend on the processing

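The rise from day 0 to day 2 passed under every alternative run for all 11 troponin probes that were well above background in all 12 arrays. Where the dimmer probes were kept, 15 of 15 passed. Both Tnni3 probes and the dimmer Tnnt2 probes entered the main test only through groups of day 2, however, so that the filter favoured their rise. A_55_P2715376 (Tnnt2) has only the bound given above. At day 2 the troponin probes that passed numbered 4. The count was 0 with quantile normalisation, without a filter for dim signals, with the methods' t-test after Benjamini-Hochberg adjustment and with a required fold change of 2, 5 with normexp, 6 with the slide as a block, 6 with the arrays of 1 comparison alone, where both Tnni1 probes were added, 9 with the replicate block and 10 with the methods' t-test unadjusted. It ranged from 2 to 4 when 1 array was left out. Of all probes in each fit, 12% passed at day 2 in either direction in the main fit. This share was 12.5% with quantile normalisation, 2.31% without the filter, 11.7% with normexp, 21.8% with the slide as a block and 21.3% with the replicate block. The single call at day 0 became 0 without a filter, with the methods' t-test after adjustment and with the fold limit. Of all probes, 17.1% passed at day 0 in the main fit and 4.38% without the filter. For the difference between the days the count of 0 became 1 with the filter on all 12 arrays, 6 with the replicate block, 5 with the slide as a block and 2 with limma-trend and a robust prior, and ranged from 0 to 2 when 1 array was left out. Of all probes, 4.59% passed for that difference in the main fit, 13% with the replicate block and 13.7% with the slide as a block. The arrays of 1 comparison alone and the t-test give no value for that difference. The replicate block changed no other call among the 8 genes than those given with it. The cause was not tested.

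Small differences that did not pass changed sign. With quantile normalisation Tnni2 at day 0 was -0.014 and the difference between the days of A_52_P622418 (Tnnt3) was 0.012. With normexp the Tnni3 probes at day 0 were 0.089 and 0.081. When 1 array was left out, values at day 0 ranged from -0.081 to 0.15 for Tnnc1, from -0.051 to 0.22 for Tnnc2, from -0.065 to 0.15 for Tnni2, from -0.78 to 0.084 and -0.67 to 0.10 for Tnni3, from -0.054 to 0.21 and -0.009 to 0.19 for Tnnt1, from -0.13 to 0.92 and -0.017 to 0.53 for the dim Tnnt2 probes, and from -0.35 to 0.043, -0.285 to 0.028 and -0.28 to 0.016 for Tnnt3. For A_55_P2715371 (Tnnt2) they ranged from -0.17 to 0.031 at day 2 and from -0.97 to 0.079 for the difference, and for A_52_P622418 (Tnnt3) from -0.37 to 0.023 for the difference. Where a troponin probe was not well above background in a group, its signal there is only a bound.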
